A study of Ciona robusta with 3 samples.

Results

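The extracellular matrix and the receptors that read it were followed through 7 genes in embryos of Ciona robusta, a tunicate whose B7.5 lineage is a compact model of heart and muscle formation. They are Ddr2 (KY2019:KY.Chr9.1025), Col19a1 (KY2019:KY.Chr1.896), Col6a3 (KY2019:KY.Chr13.461), both Svep1 genes (KY2019:KY.Chr5.738 and KY2019:KY.Chr5.734), Adamts15 (KY2019:KY.Chr1.1471) and Reck (KY2019:KY.Chr13.101), taken by identifier out of the 17822 genes of the count tables. Each name is that of the best match in another species, and identifiers are written below without the prefix. The genes were chosen with their levels over time, in the cell classes and in each CRISPR condition of these same cells known. All their values are therefore a description, with no p-value, and nothing is read from counts of members called.

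Droplet single-cell RNA-seq gave 3 libraries of sorted, methanol-fixed cells carrying the B7.5-lineage reporter Mesp>GFP, from pooled eggs of several animals. The time series was 1 library of 10 pooled time points, from 5 to 14 hours post-fertilization (hpf). The CRISPR experiment at 12 hpf was made as repeats 1 and 2. Each repeat pooled embryos with guides against Foxf, against Gata4/5/6, against Foxtun4 or with control reagents, whose target is not given in the sources used here for these libraries. The study drove Cas9 with the Mesp enhancer of the B7.5 lineage in its imaging screen, and its driver here is likewise not given. Electroporated transgenes are inherited mosaically, so edited and unedited cells can be mixed in a condition. Transcribed sample barcodes marked the time point or condition of each cell. Which barcodes stood for which was read by eye from colour keys in the study's appendix, and all values by time point or condition rest on that reading. The time series held 40785980 UMIs (counted molecules) in 2569 cell barcodes, with a median of 14049 per cell. Repeats 1 and 2 held 231 and 638 cells with medians of 19847 and 21552 UMIs.

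B7.5 founder cells divide to give anterior tail muscle (ATM) cells and trunk ventral cells (TVCs), the multipotent cardiopharyngeal progenitors, which migrate along other tissues before they divide. Collagens form the fibres and sheets that migrating cells move on, and surface receptors bind them. Secreted proteases cut the matrix, and their inhibitors hold that cutting in check. Foxf encodes a forkhead transcription factor that TVCs use for migration. In mammals, Ddr2 is a receptor tyrosine kinase activated by collagen, Col19a1 and Col6a3 are collagen chains, Svep1 is a large secreted adhesion protein, Adamts15 is a secreted metalloprotease that cleaves proteoglycans, and Reck is a membrane-anchored inhibitor of matrix metalloproteases. These roles are background and were not measured here.

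Cells were clustered without the 7 genes and named from marker lists. TVC-like clusters held 521 barcoded cells of the time series, ATM-like clusters 284 and the founder-like cluster 81. Progenitor sums at each time point were taken over all barcoded cells outside the ATM-like clusters, and are given as UMIs per 1000000 UMIs of the same sum (CPM) with exact Poisson 95% intervals. They held 37, 236, 102, 38, 295, 138, 112 and 90 cells in the hourly samples from 6 to 13 hpf. Early and late sums drew on different clusters. TVC-like cells numbered 0, 1, 0 and 1 at 6, 7, 8 and 9 hpf, where the other cells were founder-like or in unnamed clusters (98 of 102 at 8 hpf), against 187, 128, 108 and 83 at 10, 11, 12 and 13 hpf. Some unnamed clusters in these sums met muscle markers. One of 195 cells met 5 ATM, 4 founder and 0 TVC markers, and one of 64 cells met 6 ATM and 4 TVC markers. The progenitor sums are thus not free of cells with muscle markers. A change within a cell type and a change in the mixture of clusters cannot be told apart between 8 and 12 hpf. Values in TVC-like cells alone, added after the data were seen, are given from 10 to 13 hpf. No direction was read from the 8 cells of 5 hpf and the 13 cells of 14 hpf. Of the 23 clusters, 13 were sparsely barcoded, with under 50% of cells assigned. The epidermis marker Epi1-KY.Chr1.2380 was over 1000 CPM in 8 of these clusters. A total of 110 of the 1048 progenitor cells of 6 to 13 hpf lay in such clusters, and member results that rest on them are given with and without them. There was 1 library and no replicate of a time point, and intervals cover counting error alone.

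The receptor gene Ddr2 was low in the early sums, highest at 10 and 11 hpf, and lower again at 12 and 13 hpf. Its level was 38.4 CPM at 6 hpf, 13 CPM at 7 hpf and 17.8 CPM at 8 hpf. It was then 109 CPM at 9 hpf, 400.4 CPM at 10 hpf, 539.9 CPM at 11 hpf (interval 507 to 574), 314 CPM at 12 hpf and 131 CPM at 13 hpf. The interval at 11 hpf lay above those of all other time points from 6 to 13 hpf, but not in TVC-like cells alone. There Ddr2 had 584.9 CPM at 10 hpf (554 to 617), 569 CPM at 11 hpf (534 to 605), 319 CPM at 12 hpf and 142 CPM at 13 hpf, so that 10 and 11 hpf overlapped. The share of cells with a Ddr2 UMI was 94.2% of 138 cells at 11 hpf, against 14.7% of 102 cells at 8 hpf, with median depths of 12961 UMIs at 11 hpf and 14026 at 8 hpf. From 12 over 8 hpf, the log2 ratio on the log2(CPM + 10) scale was 3.54 (interval 3.16 to 3.91), beside a median of 0.21 over 4642 genes.

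The collagen gene Col19a1 came up in the same hours and was still high at 13 hpf. It had 21.8 CPM at 6 hpf, 33.1 CPM at 7 hpf, 26.0 CPM at 8 hpf and 187 CPM at 9 hpf. Later sums gave 260.1 CPM at 10 hpf, 663 CPM at 11 hpf, 809 CPM at 12 hpf and 994 CPM at 13 hpf. One cell held 288 of the UMIs, and in clusters at least 50% barcoded the levels at 12 and 13 hpf were 829 and 815 CPM. The 12 over 8 hpf log2 ratio was 4.51 (4.17 to 4.85) in all progenitor cells, 5.43 in those clusters alone and 1.56 where 1 barcode of a pair was enough to assign a cell. In TVC-like cells Col19a1 had 305 CPM at 10 hpf, 712 CPM at 11 hpf, 829 CPM at 12 hpf and 815 CPM at 13 hpf. A UMI of Col19a1 was seen in 97.3% of cells at 12 hpf, against 16.7% at 8 hpf.

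Both Svep1 genes were near 0 before 10 hpf, and each was higher from 10 hpf on. Svep1-KY.Chr5.738 had 1.28, 5.10, 1.27 and 3.82 CPM at 6, 7, 8 and 9 hpf. It reached 34.9 CPM at 10 hpf, 167 CPM at 11 hpf and 194 CPM at 12 hpf (173 to 217), and was 113 CPM at 13 hpf. Svep1-KY.Chr5.734 had 0 to 1.91 CPM from 6 to 9 hpf, with at most 1 UMI at any of these time points. It had 26.4 CPM at 10 hpf, 44.9 CPM at 11 hpf, 40.3 CPM at 12 hpf and 21.7 CPM at 13 hpf, and the intervals of 11 and 12 hpf overlapped. In TVC-like cells it had 38.2, 48.97, 42.5 and 23.8 CPM at 10, 11, 12 and 13 hpf, and Svep1-KY.Chr5.738 had 48.5, 177, 197 and 123 CPM. Across the 8 time points, which share 1 library, the log2(CPM + 10) profiles of the Svep1 pair had a Pearson r of 0.96. How far reads of one could be counted for the other was not tested, since no sequence was used.

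Reck, the protease inhibitor, ran the other way. Progenitor sums gave 227 CPM at 6 hpf, 453 CPM at 7 hpf (432 to 474) and 332 CPM at 8 hpf. They then gave 132 CPM at 9 hpf, 116 CPM at 10 hpf, 37.0 CPM at 11 hpf, 10.2 CPM at 12 hpf and 12.2 CPM at 13 hpf. In TVC-like cells alone it had 121 CPM at 10 hpf, 39.2 CPM at 11 hpf, 10.96 CPM at 12 hpf and 2.97 CPM at 13 hpf. Control TVC-like cells of the CRISPR libraries, also of 12 hpf, stood far above this, at 115 and 151 CPM of Reck with a UMI in 19 of 31 and 51 of 64 cells. The 2 sets of 12 hpf cells differed in more than Reck. Ddr2 had 319 CPM in TVC-like cells of the time series against 696 and 627 CPM in these control sums. Svep1-KY.Chr5.738 had 197 CPM against 224 and 298 CPM, whereas Col19a1 was lower in the control sums, with 829 CPM against 562 and 733 CPM. These are other libraries, and the cause of the gaps was not tested. The 12 over 8 hpf log2 ratio was −4.08 (−4.45 to −3.67), and the profile had a Pearson r of −0.94 with that of Col19a1 over the 8 time points. The protease gene Adamts15 was hardly seen in progenitors, with 77 UMIs in all from 6 to 13 hpf and 0 to 7.64 CPM at each time point. Its 12 over 8 hpf interval, −0.79 to 0.07, spanned 0.

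The profile of the collagen gene Col6a3 rested on few cells. Over all barcoded progenitors it had 17.9 CPM at 6 hpf, 181 CPM at 7 hpf, 553 CPM at 8 hpf, 120.3 CPM at 9 hpf and 486 CPM at 10 hpf. At 11, 12 and 13 hpf it had 113, 39.1 and 203 CPM, so that the profile had no single peak. In the clusters at least 50% barcoded it lay between 10.8 and 21.8 CPM at every time point. The 110 cells in sparsely barcoded clusters, 10.5% of the progenitors, held 3818 of the 4005 Col6a3 UMIs (95.3%) and also 96.0% of the UMIs of Epi1. In those cells Epi1 stood at 5436 CPM at 7 hpf, 7713 CPM at 8 hpf and 5811 CPM at 10 hpf, against 25.4, 34.5 and 28.4 CPM in the other progenitors. The 12 over 8 hpf log2 ratio of Col6a3 was −3.52 with these cells and 0.24 without them, which turned its direction.

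**Figure D1:**
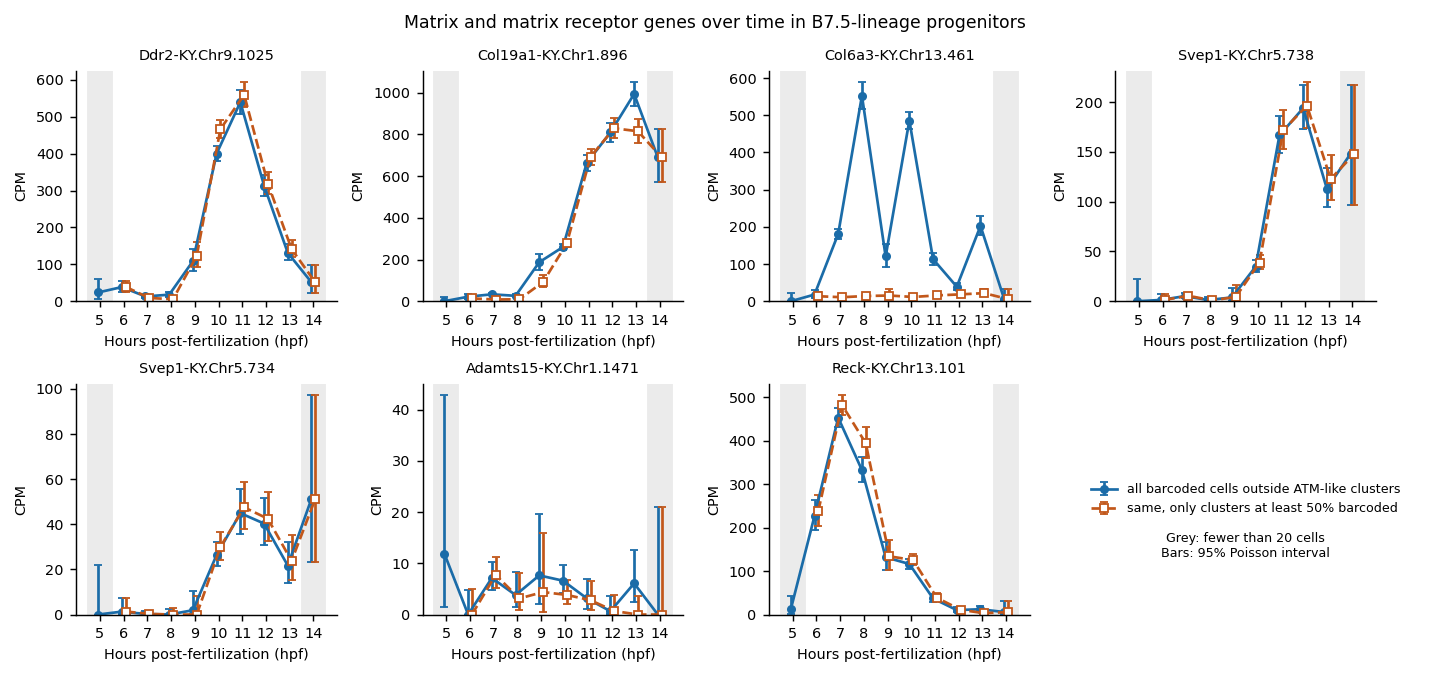
CPM of each gene in progenitor sums (y axis) by hours post-fertilization (x axis). Filled points are all barcoded cells outside ATM-like clusters, open squares only clusters at least 50% barcoded, bars are 95% Poisson intervals, and grey marks sums of fewer than 20 cells. Ddr2 is highest at 539.9 CPM at 11 hpf and Reck at 453 CPM at 7 hpf, while Col6a3 stays between 10.8 and 21.8 CPM in the open squares from 6 to 13 hpf.

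The genes whose profiles were most like each member's were picked by the Pearson r of log2(CPM + 10) over the 8 time points of 6 to 13 hpf, among 6712 genes. For Ddr2 they were Pcdh18-KY.Chr9.393 (0.99), Snx11-KY.Chr1.1305 (0.99) and Traf3ip1-KY.Chr7.332 (0.98). Itih5-KY.Chr3.1279, one of the TVC markers used here, led for Col19a1 at 0.996, before Borcs8-KY.Chr6.700 and Atp5g1-KY.Chr1.226. Kif12-KY.Chr4.282, Prmt7-KY.Chr2.2197 and Qk-KY.Chr12.929 came first for Svep1-KY.Chr5.738, each at 0.99. Frs3-KY.Chr14.1060, KY.Chr1.1971 and Fzd4-KY.Chr6.487, a Wnt receptor gene, came first for Svep1-KY.Chr5.734, at 0.998, 0.99 and 0.99. Reck was most like Rbfox3-KY.Chr10.961, Lrrfip2-KY.Chr9.680 and Tmx2-KY.Chr10.1110, each at 0.99. The genes most like Col6a3 were KY.Chr10.1357, Svep1-KY.Chr7.983 and Sspo-KY.Chr8.323, each at 0.99. One of these, Svep1-KY.Chr7.983, stood at 5905 CPM in unassigned cells of sparsely barcoded clusters, against 46.2 CPM in TVC-like cells. Adamts15 had too few UMIs for a profile.

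A list of 127 other matrix genes gave the setting. It was taken from names in shortened tables of the study, partly sorted by the study's own p-values, and is no neutral sample of matrix genes. Of these, 33 had at least 100 UMIs at 8 and 12 hpf together, and 9 were over 2-fold higher and 11 over 2-fold lower at 12 hpf. Their median log2 ratio was 0.02, beside 0.21 over the 4642 genes with as many UMIs, of which 19.9% were over 2-fold higher and 11.1% over 2-fold lower. In clusters at least 50% barcoded, a setting added after the data were seen, 26 list genes had as many UMIs, 10 were higher and 4 lower, and the median was 0.72, beside 21.8% higher, 9.22% lower and a median of 0.25 over 4167 genes. Among the higher ones were Col18a1-KY.Chr9.977, a basement membrane collagen (654 CPM at 12 hpf against 98.97 CPM at 8 hpf), and Tll2-KY.Chr12.746, of the Tolloid protease family (279 against 48.2 CPM). Fbln1-KY.Chr1.1656, a basement membrane glycoprotein, had 760.0 CPM at 12 hpf against 185 CPM at 8 hpf. Lower ones included Thbs2-KY.Chr3.1534, a thrombospondin (368 CPM at 12 hpf against 1940 CPM at 8 hpf), and Matn2-KY.Chr1.2555 (53.8 against 1613 CPM), which was also high in unassigned cells at 7084 CPM. In clusters at least 50% barcoded Thbs2 had 380.04 CPM at 12 hpf against 2320 CPM at 8 hpf, whereas Matn2 had 25.3 against 36.8 CPM and no longer met the count limit. These 5 genes were picked after their values were seen. Of 56 list genes with enough UMIs for a profile, 28 (50%) peaked at 11 to 13 hpf, beside 39.3% of 6712 genes, a difference from which nothing is read for a list so chosen.

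Between the cell classes, 4 members were higher and 3 lower in TVC-like than in ATM-like cells of the time series. Ddr2 had 440.5 CPM in TVC-like cells (425 to 457), against 2.74 CPM in ATM-like cells (1.60 to 4.39). A Ddr2 UMI was seen in 91.4% of TVC-like cells and in 5.63% of ATM-like cells, although their median depths were 12504 and 22395 UMIs. Svep1-KY.Chr5.738 had 127 CPM against 1.29 CPM, a ratio of 98.7 (49.9 to 229). Svep1-KY.Chr5.734 had 270 UMIs (39.96 CPM) in TVC-like cells and none in ATM-like cells. Set against a floor of 3 UMIs over the ATM-like group, it was at least 82.5-fold higher. Over 7048 genes the median log2 ratio of TVC-like over ATM-like cells was 0.83, and the intervals of these genes lay far above it. TVC-like cells came almost all from 10 hpf on, while ATM-like cells included 8 and 9 hpf. At 10 hpf alone the ratio of Svep1-KY.Chr5.738 was 56.4 (18.8 to 278), Svep1-KY.Chr5.734 was at least 44.4-fold higher, and Ddr2 had 584.9 CPM in TVC-like cells against 1.72 CPM in ATM-like cells.

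Col19a1 had 608 CPM in TVC-like cells against 50.04 CPM in ATM-like cells, a ratio of 12.2 (10.8 to 13.7), which was 6.83 (5.73 to 8.17) at 10 hpf alone. The muscle value came from few cells. Only 42 of the 284 ATM-like cells had a UMI, and 5 of them held 70.6% of the UMIs, with 128 in 1 cell. Col6a3 was low in both, with 15.7 CPM in TVC-like cells against 25.02 CPM in ATM-like cells, and 5 cells held 49.7% of the ATM-like UMIs.

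Adamts15 and Reck were the muscle-sided members. Adamts15 had 1.92 CPM in TVC-like cells (1.02 to 3.29) against 54.7 CPM in ATM-like cells (49.1 to 60.9), and was seen in 12 of 521 cells against 155 of 284 cells. Reck had 55.6 CPM in TVC-like cells against 279.9 CPM in ATM-like cells. At 10 hpf alone, where both classes had over 160 cells, Reck had 121 CPM in 187 TVC-like cells against 316 CPM in 165 ATM-like cells, and Adamts15 had 3.43 against 66.2 CPM. In ATM-like cells Adamts15 stood at 13.1 CPM at 8 hpf, 38.5 CPM at 9 hpf, 66.2 CPM at 10 hpf and 69.9 CPM at 11 hpf, while Reck stood at 278, 282, 316 and 218 CPM. At 12 and 13 hpf, with 14 and 6 ATM-like cells, Reck had 125 and 41.4 CPM and Adamts15 54.4 and 75.9 CPM, and no direction was read from so few cells. Founder-like cells had the highest Reck of the groups at 438 CPM (404 to 474) with a UMI in 75 of 81 cells, but only 22.1 CPM of Ddr2, 7.84 CPM of Col19a1 and no UMI of Svep1-KY.Chr5.734.

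Both collagens had their highest levels among cells that the barcodes left unassigned. In the 1111 unassigned cells of sparsely barcoded clusters Col6a3 stood at 5785 CPM, against 15.7 CPM in TVC-like cells, and Col19a1 at 753 CPM against 608 CPM. The other members were at or below 65.9 CPM in this pooled sum, and both Svep1 genes were near 0, at 1.56 CPM and at 1 UMI in 15405380. Ddr2 was not low in every such cluster. A time series cluster of 82 cells, with 13416 CPM of Epi1, had 321 CPM of Ddr2 and a UMI of it in 82.9% of cells. In the CRISPR libraries an unnamed cluster of 18 cells had 340 CPM of Ddr2, with a UMI in 88.9% of cells. By cluster, Col6a3 reached 16697 CPM in a cluster of 85 cells with 11603 CPM of Epi1. In the 8 time series clusters with over 1000 CPM of Epi1, Col6a3 ranged from 1277 to 16697 CPM, against 9.01 to 57.4 CPM in the other 15 clusters. In the CRISPR libraries, 5 clusters over that level had 1087 to 6966 CPM of Col6a3, against 6.19 to 21.8 CPM in the other 10. The level of 1000 CPM was chosen after the values were seen. Col19a1 was highest in another of these clusters, with 12969 CPM in 37 cells of which 2.7% were assigned, and 8148 CPM in a cluster of 30 cells of the CRISPR libraries. These clusters met no marker rule and have no name.

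**Figure D2:**
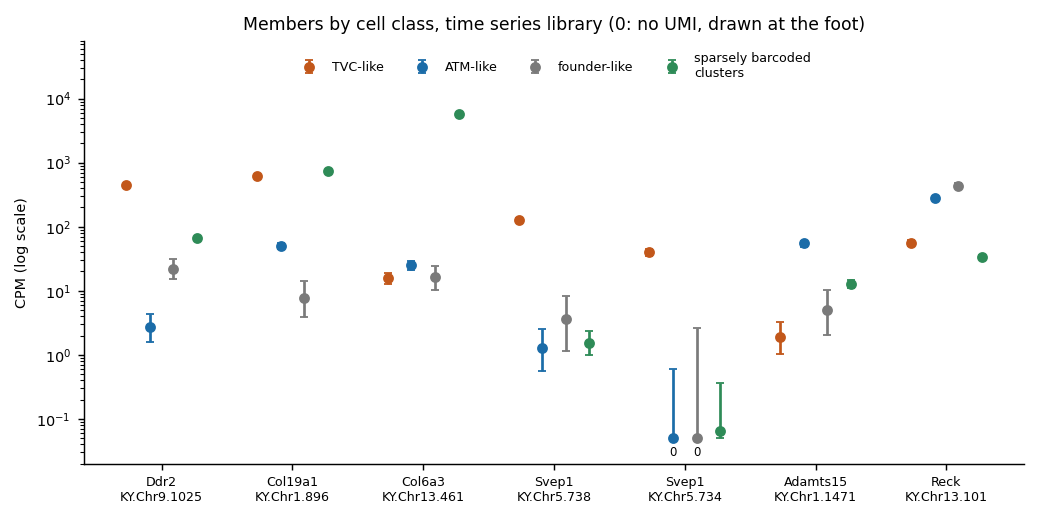
CPM (log y axis) of each gene (x axis) in barcoded TVC-like, ATM-like and founder-like cells and in unassigned cells of sparsely barcoded clusters, with 95% Poisson intervals. Ddr2, Col19a1 and both Svep1 genes lie above their ATM-like level in TVC-like cells, Adamts15 and Reck lie below it, and Col6a3 is at 5785 CPM only in the unassigned cells.

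**Figure D3:**
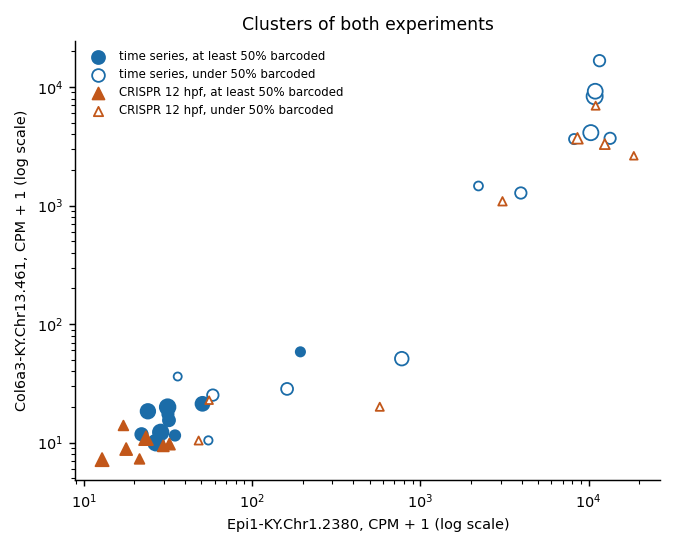
Col6a3 (y axis) against the epidermis marker Epi1 (x axis), both as CPM + 1 on log axes, with 1 point per cluster and larger points for more cells. Clusters of either experiment with over 1000 CPM of Epi1 have at least 1087 CPM of Col6a3, and all of them are under 50% barcoded.

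For the CRISPR libraries, sums of UMIs were formed for each class under each condition in each repeat. TVC-like sums of repeats 1 and 2 held 13 and 40 cells for Foxf, 9 and 34 for Gata4/5/6, 6 and 24 for Foxtun4, and 31 and 64 for control. Each targeted transcript was lower in its own condition in both repeats. Foxf itself had 60.0 and 167 CPM in Foxf CRISPR against 586 and 465 CPM in control. Gata4/5/6 had 122 and 68.8 CPM in its condition against 247 CPM in both control sums, and Foxtun4 had 110 and 76.8 CPM in its condition against 346 and 291 CPM in control. The labels do not say that the repeats came from separate batches of embryos, so p-values measure only the spread between these libraries.

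Under Foxf CRISPR the receptor, the collagen Col19a1, both Svep1 genes and Reck were at lower levels in TVC-like cells, and Adamts15 was higher. Ddr2 had 164 CPM in repeat 1 and 217 CPM in repeat 2 under Foxf CRISPR, against 696 and 627 CPM in control. Col19a1 had 164 and 151 CPM under Foxf CRISPR, against 562 and 733 CPM in control. The groups did not overlap for either gene. The fitted log2 fold changes (edgeR) were −1.69 ± 0.18 (SE) for Ddr2 and −2.03 ± 0.20 for Col19a1. A Ddr2 UMI was seen in 5 of 13 and 20 of 40 Foxf CRISPR cells, against 30 of 31 and 61 of 64 control cells. With cells thinned to 5000 UMIs, which left out 4 Foxf CRISPR cells and 1 control cell of repeat 1, these shares were 22.2% and 30% under Foxf CRISPR, against 90% and 85.9% in control.

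Svep1-KY.Chr5.738 had 32.8 and 35.9 CPM under Foxf CRISPR, against 224 and 298 CPM in control, a log2 fold change of −2.87 ± 0.25. Svep1-KY.Chr5.734 had 1 and 4 UMIs (5.46 and 5.75 CPM) under Foxf CRISPR, against 25 and 46 UMIs (43.5 and 38.3 CPM) in control, a log2 fold change of −2.75 ± 0.54 (−2.14 without repeat 2). Both genes were thus low in both Foxf sums. Reck had 60.0 and 46.0 CPM under Foxf CRISPR, against 115 and 151 CPM in control, with a log2 fold change of −1.42 ± 0.30 that was −0.81 without repeat 2.

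Adamts15 had 38.2 and 56.1 CPM under Foxf CRISPR, from 7 and 39 UMIs, against 13.9 and 7.5 CPM in control. The log2 fold change of 2.36 ± 0.48 became 1.240 without repeat 2 and 1.70 at the finer clustering. Of the muscle markers, Smyd1-KY.Chr6.594 had 475 and 288 CPM in the same Foxf sums against 85.3 and 213 CPM in control, and Myl1-KY.Chr1.2010 had 633 and 480.2 CPM against 172 and 441 CPM. Smyd1 and Myl1 are examples, and nothing is read from them for the other ATM markers. In repeat 1 the ATM marker Ttn-KY.Chr9.1127 went the other way, with 2565 CPM under Foxf CRISPR against 3092 CPM in control. Chrna1-KY.Chr7.710 was nearly level there, at 317 against 308 CPM. Summed over the 10 ATM markers, the level was 21097 and 16008 CPM under Foxf CRISPR against 15594 and 13759 CPM in control. That sum was 20524 and 15898 CPM under Gata4/5/6 CRISPR, so a higher sum was not particular to Foxf CRISPR. Under Foxtun4 CRISPR it was 11718 and 15060 CPM. The 10 TVC markers summed to 11987 and 12112 CPM against 17172 and 18252 CPM. They did not all go one way. Enpp3-KY.Chr2.1038 had 4552 and 3753 CPM under Foxf CRISPR against 7353 and 8275 CPM in control, whereas Hand2-KY.Chr1.2070 had 3805 and 4208 CPM against 2737 and 2515 CPM. The ATM regulator Myf5-KY.Chr14.1058 was at 0 in the Foxf sum of repeat 2 and in the control sum of repeat 1. The part of muscle RNA in the Adamts15 result was not tested.

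Col6a3, at 5.46 and 8.63 CPM under Foxf CRISPR against 10.4 and 14.17 CPM in control, did not pass the filter on low counts. The other 6 members passed, and all 6 were called (adjusted p under 0.05 and a log2 fold change beyond 0.5 either way), beside 4.45% of the 6451 genes tested. In the higher direction 1 member was called beside 1.58% of all genes (102), and in the lower direction 5 beside 2.87% (185). The genes were chosen with this contrast known, so nothing is read from that count. Adamts15 was low in all TVC-like sums but those of Foxf CRISPR. It had 8 and 9 UMIs in control, 4 and 7 under Gata4/5/6 CRISPR, and 0 and 1 under Foxtun4 CRISPR. It thus passed the filter through the Foxf sums, where it was high, and its call and fold change share that limit. The same filter served the other contrasts in TVC-like cells. Beside the 6 members whose sums did not overlap stand 42.5% of all genes.

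The TVC-like cells of Foxf CRISPR also fell into other clusters than those of control. A single cluster held 40 of the 53 Foxf CRISPR cells and 3 of the 95 control cells. In that cluster the Foxf CRISPR cells had 141 CPM of Ddr2, 108 CPM of Col19a1 and 21.4 CPM of Svep1-KY.Chr5.738, and they held 45 of the 46 Adamts15 UMIs of the Foxf CRISPR cells. In the cluster with most control cells, the 10 Foxf CRISPR cells had 389 CPM of Ddr2, 347 CPM of Col19a1 and 56.6 CPM of Svep1-KY.Chr5.738, against 627, 751 and 174 CPM in its 57 control cells. Reck had 84.9 CPM in those Foxf CRISPR cells against 160.3 CPM in control cells. Svep1-KY.Chr5.734 had 3 against 37 UMIs (21.2 against 35.31 CPM, with intervals that overlapped). Adamts15 had 1 against 11 UMIs, 7.07 CPM against 10.5 CPM, so its higher level under Foxf CRISPR was not seen in this cluster. These values rest on 10 cells and have no test.

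**Figure D4:**
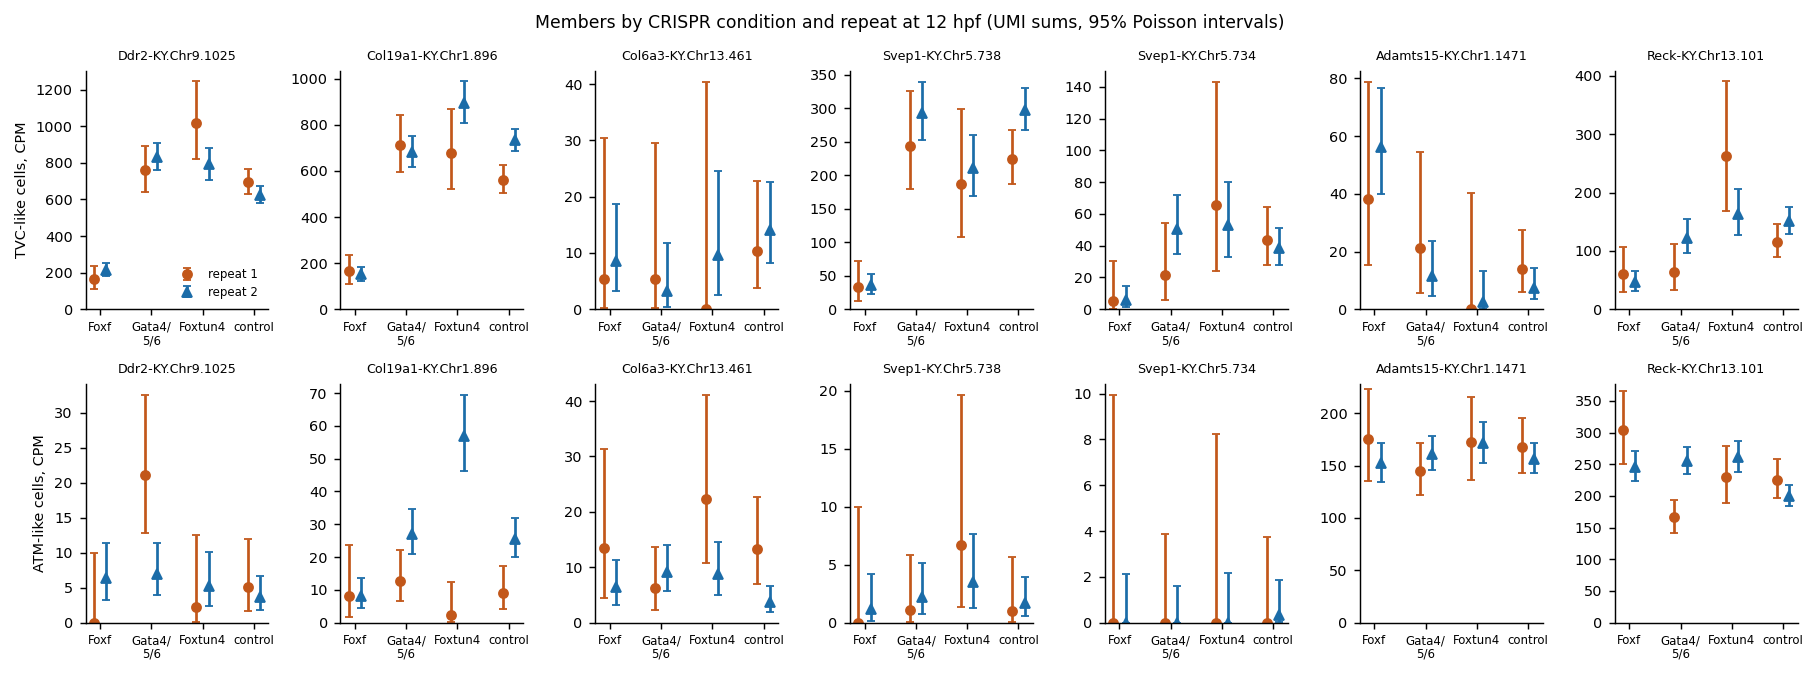
CPM (y axes) of each gene by CRISPR condition (x axis: Foxf, Gata4/5/6, Foxtun4, control) in TVC-like cells (top) and ATM-like cells (bottom), with repeat 1 as circles, repeat 2 as triangles and 95% Poisson intervals. In TVC-like cells both Foxf points of Ddr2, at 164 and 217 CPM, lie below all other points of that gene, and in ATM-like cells Adamts15 lies between 145 and 175 CPM in every condition.

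For Gata4/5/6 and Foxtun4 CRISPR the same members were compared with the same control sums that the Foxf contrast used, so the contrasts are not independent. Under Gata4/5/6 CRISPR Ddr2 had 759 and 834 CPM, against 696 and 627 CPM in control, a log2 fold change of 0.32 (95% interval −0.0019 to 0.63). Col19a1 had 711 and 682 CPM, against 562 and 733 CPM in control, so the groups overlapped. Svep1-KY.Chr5.738 had 244 and 293 CPM against 224 and 298 CPM, and Svep1-KY.Chr5.734 had 21.2 and 50.8 CPM against 43.5 and 38.3 CPM. Reck had 63.7 and 123 CPM against 115 and 151 CPM, and Adamts15 had 4 and 7 UMIs against 8 and 9 UMIs. None of the 6 members that passed the filter was called by edgeR, beside 0.171% of all genes (11 of 6451, with 0.0155% higher and 0.155% lower). DESeq2 called no member either, and nothing is read from these counts. For 1 of the 6 the sums did not overlap, beside 35.0% of all genes.

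Under Foxtun4 CRISPR, with 6 and 24 cells, Ddr2 had 1018 and 792 CPM, against 696 and 627 CPM in control. Its log2 fold change was 0.43 ± 0.17 (SE), with a 95% interval of 0.095 to 0.757. Col19a1 had 679 and 895 CPM against 562 and 733 CPM in control, and Reck 263 and 163.2 CPM against 115 and 151 CPM. Svep1-KY.Chr5.738 had 186 and 211 CPM against 224 and 298 CPM, while Svep1-KY.Chr5.734 had 65.7 and 52.8 CPM against 43.5 and 38.3 CPM. Adamts15 had 0 and 1 UMIs against 8 and 9 UMIs in control, a pooled ratio of 0.206 with a counting interval of 0.00492 to 1.31. No member was called by edgeR, beside 0.0310% of all genes (2 of 6451). DESeq2 called no member, and nothing is read from these counts. The sums of 5 of the 6 members that passed did not overlap with control, beside 36.0% of all genes. The 95% intervals of the log2 fold changes were of unlike width in both conditions. Under Gata4/5/6 CRISPR that of Col19a1 ran from −0.20 to 0.46 and that of Adamts15 from −0.68 to 1.78. That of Reck ran from −0.84 to 0.17 under Gata4/5/6 CRISPR and from −0.03 to 1.01 under Foxtun4 CRISPR.

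In ATM-like cells, with 12 and 58 cells for Foxf and 33 and 93 for control, 4 members passed the filter. Reck had 304 and 246 CPM under Foxf CRISPR, against 226 and 200.2 CPM in control, a log2 fold change of 0.24 (−0.17 to 0.65). Adamts15 had 175 and 152 CPM against 168 and 156 CPM, a log2 fold change of −0.11 (−0.45 to 0.24). Col19a1 had 8.08 CPM in both Foxf sums against 9.16 and 25.6 CPM in control, and Col6a3 had 13.5 and 6.35 CPM against 13.2 and 3.70 CPM. Neither a member nor any of the 6632 genes was called by edgeR (0%), 195 genes had an unadjusted p under 0.05, and DESeq2 called 1 gene. For 2 of the 4 members the sums did not overlap, beside 34.5% of all genes. Ddr2 had 0 and 6.35 CPM under Foxf CRISPR against 5.09 and 3.70 CPM, and both Svep1 genes were at 1.68 CPM or lower in the Foxf and control sums.

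Under Gata4/5/6 CRISPR, ATM-like cells had 145 and 161 CPM of Adamts15 and 166 and 255 CPM of Reck, against 168 and 156 CPM of Adamts15 and 226 and 200.2 CPM of Reck in control. Under Foxtun4 CRISPR they had 172 and 171 CPM of Adamts15 and 230.4 and 261 CPM of Reck. Col19a1 reached 56.9 CPM in the Foxtun4 sum of repeat 2, where 1 cell held 67 of the 97 UMIs, against 25.6 CPM in control of that repeat.

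**Figure D5:**
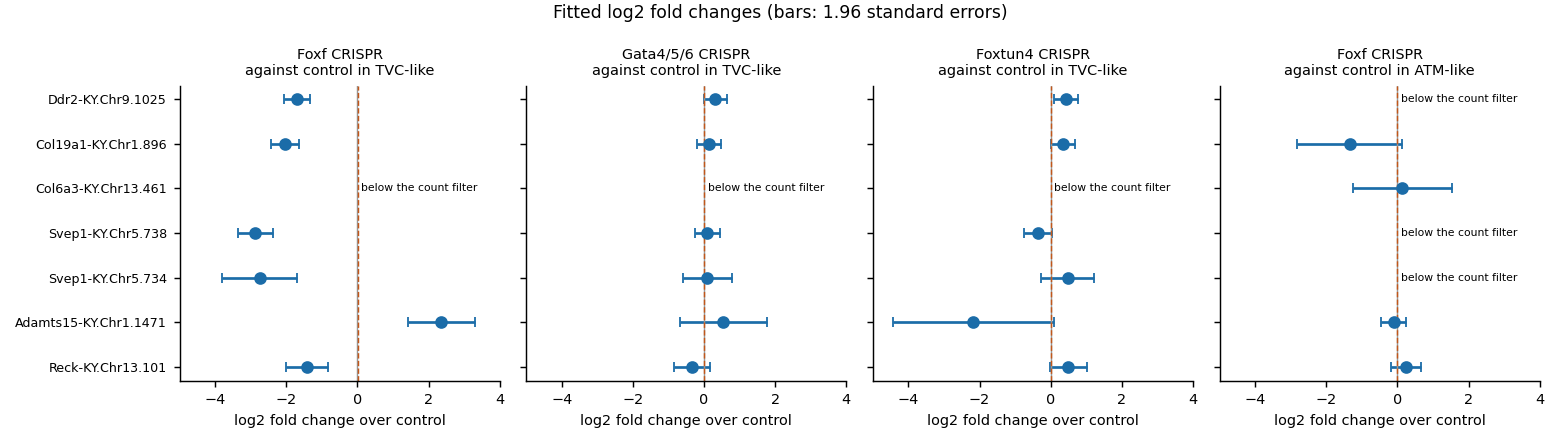
Fitted log2 fold changes over control (x axis, bars 95% intervals) for each gene (rows) in the 4 contrasts, with the median of all genes as a dashed line. Ddr2, Col19a1, both Svep1 genes and Reck lie left of 0 and Adamts15 right of it under Foxf CRISPR in TVC-like cells. In the other contrasts the intervals span 0, except that of Ddr2 under Foxtun4 CRISPR, at 0.095 to 0.757.

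Other matrix genes were set beside the members in the Foxf contrast. Of the 127, 56 were tested in TVC-like cells, and 3 were called higher and 3 lower (10.7%, beside 4.45% of all genes tested). The median log2 fold change of the 56 was 0.04, beside 0.01 over all genes. Part of the list comes from the study's own tables of these cells, so it is not independent evidence. Leaving out genes that only the table of the CRISPR contrasts named, 110 remain, of which 48 were tested, 1 was higher and 2 lower (6.25%). Matn1-KY.Chr1.919, a matrilin, fell to 16.4 and 10.06 CPM in Foxf CRISPR, against 67.9 and 85.0 CPM in control (log2 fold change −2.71 ± 0.39, adjusted p = 0.000378, edgeR). Tll2-KY.Chr12.746 fell to 808 and 1106 CPM in Foxf CRISPR, against 1761 and 1878 CPM in control (adjusted p = 0.00248, edgeR). The second gene of that name, Tll2-KY.Chr8.1055, had 0 UMIs in both Foxf sums and 31 UMIs in control, at least 5.117-fold lower against a floor of 3 UMIs over the Foxf CRISPR sums (adjusted p = 0.0188, edgeR).

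The matrix genes that rose were a Svep1-named gene outside the members, a laminin chain and a basement membrane collagen. Svep1-KY.Chr4.444 had 76.4 and 196 CPM in Foxf CRISPR against 34.8 and 16.7 CPM in control (log2 fold change 2.78 ± 0.38, adjusted p = 0.000247, edgeR). Lama2-KY.Chr1.1601 had 142 and 134 CPM against 38.3 and 50.01 CPM (1.62 ± 0.24, adjusted p = 0.000389, edgeR). Col4a2-KY.Chr12.893 had 2107 and 2249 CPM against 1343 and 1302 CPM (0.77 ± 0.15, adjusted p = 0.00482, edgeR). None of the 8 tested surface receptors on the list, integrins among them, was called, beside 4.45% of all genes. Nothing is read from this for so few genes. Under Gata4/5/6 and Foxtun4 CRISPR, none of the 56 other matrix genes was called in TVC-like cells, and under Foxf CRISPR none of 54 in ATM-like cells. Over all genes the shares called in these contrasts were 0.171%, 0.0310% and 0%, so nothing is read from these counts.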

How the data were processed

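The authors deposited whole-number counts of UMIs per gene and cell for 3 libraries, not normalized, which Cell Ranger 3.0.1 had produced against KY2019 gene models plus sample barcodes. Libraries held 5382449 to 40785980 UMIs. They share 0 to 7 cell barcodes. Time series cells between the 1st and 99th percentile of detected genes were used (2517), and all 869 CRISPR cells. The labels name libraries only, so barcode pairs were mapped to time points and conditions by eye from colour keys in the study's appendix, a reading not checked against any table. A cell was assigned when both barcodes of a pair were present and held at least 75% of the UMIs of mapped pairs (1353 and 624 cells). Cells with mixed pairs were left out, and no other doublet filter was run, so doublets remain. Cells were scaled to 10000 UMIs and clustered (scanpy 1.11.5, igraph 0.11.9, 2000 variable genes, 30 components, 15 neighbours, Leiden resolution 1) without the 7 genes, Foxf, Gata4/5/6, Foxtun4, Depdc1b and the barcodes. A cluster was named when at least 3 of its class markers counted (a UMI in at least 20% of cells, at least 2 times the mean of other clusters), with at least 3 times those of any other class, and unless its leading genes or depth went against the name.

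Count sums per repeat, condition and class (at least 5 cells) entered 1 edgeR 4.0.16 fit per class in R 4.3.3 (quasi-likelihood test after TMM scaling and edgeR's low-count filter, Benjamini-Hochberg over all genes, all 4 conditions); the study tested cells. SE is the log2 fold change over the root of F. Alternatives used RLE scaling, no filter, DESeq2 1.42.0, a replicate block, resolution 2, other assignment rules and single repeats. Tested on simulated data of 6250 genes for the Foxf contrast in TVC-like cells, 43 of 100 genes changed 2-fold and 87 of 100 changed 4-fold were recovered, with 10 of 140 calls on unchanged genes. Ratios over time added 10 CPM. The members and gene lists were chosen with earlier results of these data known. Besides the members, named genes were the 3 most alike in profile, up to 5 other matrix genes called in each direction under Foxf CRISPR, and the targeted genes. Cell type markers named singly follow no such rule. Barcode counts made outside these tables were not used here.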

Additional observations from a re-analysis of the deposited data

Results flagged for a closer look

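Reck-KY.Chr13.101 moved in opposite directions in the cell classes under Foxf CRISPR. In TVC-like cells its CPM over control was −0.94 on the log2 scale in repeat 1 and −1.71 in repeat 2, and in ATM-like cells it was 0.43 and 0.30. The mean log2 ratios were −1.32 in TVC-like and 0.36 in ATM-like cells, a difference of −1.69. The difference itself was not tested, and the 95% interval of the fitted ATM-like change, −0.17 to 0.65, includes 0.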

How the results depend on the processing

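Counts of genes called depended on the method. The Foxf contrast in TVC-like cells called 287 genes, 121 with DESeq2 and 173 at Leiden resolution 2. The Gata4/5/6 contrast called 11, with 56 without the low-count filter, 4 with DESeq2 and 4 at resolution 2. The Foxtun4 contrast called 2, with 14 without the filter, 1 with DESeq2 and 1 at resolution 2. The Foxf contrast in ATM-like cells called 0, with 26 without the filter and 1 with DESeq2. With a single repeat there is no spread among samples, so leaving out a repeat gave values and no count. With the repeat number as a replicate block the counts were 271, 14, 2 and 0. Deviations of same-numbered sums correlated at −0.07 to 0.09. Same-numbered sums nevertheless came from the same pooled library, and the main fit did not model that pairing. The block called no other member.

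Of 54 alternative values for the members under Foxf CRISPR in TVC-like cells, 45 stayed within 1 SE and none changed sign. In the other contrasts 139 of 144 kept direction and call. The log2 fold change of Svep1-KY.Chr5.734 under Gata4/5/6 CRISPR was −0.037 with DESeq2 and −0.85 to 0.42 over single repeats. That of Col19a1 in the same contrast ran from −0.071 to 0.37 over single repeats. That of Col6a3 in ATM-like cells under Foxf CRISPR was −4.26 at resolution 2 and ran from −0.12 to 0.62. The cause was not tested. Of the other matrix genes, 11 were over 2-fold lower at 12 than at 8 hpf, and 4 in clusters at least 50% barcoded.

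The 12 over 8 hpf log2 ratios kept their sign in every alternative except that of Col6a3. With 1 barcode of a pair enough they were 2.89 for Ddr2, 1.56 for Col19a1, −2.73 for Col6a3 and −3.60 for Reck. With at least 10 UMIs in the pair they were 4.05, 5.39 and −1.39 for Ddr2, Col19a1 and Col6a3, and with a 90% share 5.07 for Col19a1 and −3.05 for Col6a3. In clusters at least 50% barcoded they were 4.41, 5.43 and 0.24 for Ddr2, Col19a1 and Col6a3. With 1 CPM added, low genes moved most, to 6.43 for Svep1-KY.Chr5.738, 5.37 for Svep1-KY.Chr5.734, −1.55 for Adamts15, 4.07 for Ddr2, 4.91 for Col19a1 and −4.89 for Reck.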
